A study of Homo sapiens with 4 samples.

Results

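The 10 genes described here encode the tropomyosins (TPM1, TPM2, TPM3, TPM4), heavy and light chains of nonmuscle myosin II (MYH9, MYH10, MYL9, MYL6) and the alpha-actinins of nonmuscle cells (ACTN1, ACTN4). They were picked by gene symbol from the 58735 genes of one RNA-seq table, and each symbol matched 1 gene. The cells are OVCAR8, an established human ovarian cancer line. In the shFAM49B group (2 libraries, genotype given as knockdown of FAM49B) the cells received GIPZ lentiviral hairpin plasmids against FAM49B, a protein that binds active RAC1. In the shCON group (2 libraries, genotype given as WT) they received a scrambled hairpin. The labels describe transient transfection with a lipid reagent and harvest at 36 h, while the series' design text describes a stable knockdown. Neither the hairpin sequence nor any selection or clonal origin is stated. Whether the 2 libraries of a group are separate cultures is not stated either, and the p-values therefore cover the spread between libraries, which may be technical.

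Tropomyosins are coiled-coil dimers that lie end to end along the actin filament and decide which other proteins reach it. Nonmuscle myosin II is a motor of paired heavy chains, each carrying an essential light chain (MYL6) and a regulatory light chain (MYL9 or its close relatives MYL12A and MYL12B), and its bipolar filaments pull on actin once the regulatory chain is phosphorylated. Alpha-actinins crosslink antiparallel actin filaments and alternate with myosin along stress fibres, the contractile bundles that end at focal adhesions.

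Levels are given in FPKM (reads scaled to the length of the gene's exons and to sequencing depth), as deposited by the authors. The reads behind each value could be recovered and came to 16288871 and 16290200 in the shFAM49B libraries and 15639559 and 16875353 in the shCON libraries, so 1 read in a gene of 1 kb was worth 0.0541 to 0.0668 FPKM. FAM49B itself stood at 1.06 and 1.02 FPKM in shFAM49B and at 7.41 and 7.60 FPKM in shCON, 7.21-fold lower (log2 fold change -2.06, limma adjusted p = 0.00054). Of 12 ovarian carcinoma markers, KRT8 and KRT18, keratins of simple epithelia, were well above 1 FPKM, while PAX8, MUC16, MSLN, KRT7, FOLR1, WFDC2 and SOX17 averaged under 1 FPKM and SOX17 had no reads. The summed level of those 12 markers was 65.9 and 66.1 FPKM in shFAM49B and 78.8 and 76.0 FPKM in shCON, and EPCAM was at 0.237 ± 0.152 FPKM in shFAM49B and 2.95 ± 0.0148 FPKM in shCON (SD, n = 2 each). MECOM averaged 2.77 FPKM in shFAM49B and 3.83 FPKM in shCON, and WT1 0.843 and 1.41 FPKM. Of the 5 markers tested, EPCAM, KRT18 and MECOM fell (limma adjusted p = 0.00224, 0.0249 and 0.0490), WT1 and KRT8 did not pass and 0 rose. Among all tested genes 15.8% fell and 26.4% rose. EPCAM and WT1 reached the mean of 1 FPKM needed for testing through shCON alone.

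In shFAM49B cells the nonmuscle myosin heavy chains MYH9 and MYH10, the essential light chain MYL6 and the alpha-actinins ACTN1 and ACTN4 were higher by 1.22-fold to 1.41-fold, and the tropomyosin TPM2 was 2.16-fold lower. When libraries were instead rescaled to TPM or to their recovered reads, MYH10 was the 1 gene to rise and TPM2 and TPM4 fell. TPM1, TPM3 and TPM4 did not pass the test, and MYL9, with no reads in shFAM49B, was too low to be tested with the other genes. Of the 10 genes, 9 reached the minimum mean of 1 FPKM, and 5 of these rose and 1 fell at a limma adjusted p under 0.05. Over all 13775 genes tested, 26.4% rose and 15.8% fell, 42.2% in all. The median log2 fold change was 0.29 over the 9 genes and 0.05 over all tested genes. With 1 library left out fewer genes passed, here and among all genes, and TPM2 was the 1 gene to fall each time. Of the genes described here 4 rose without shCON replicate 1, where 15.4% of all genes rose and 7.46% fell. Without shCON replicate 2 the number was 2, beside 17.0% and 8.29%. Without shFAM49B replicate 1 it was 2, beside 18.1% and 11.1%, and without shFAM49B replicate 2 it was 1, beside 13.8% and 9.28%. Fold changes of log2 type were taken from log2(FPKM + 1), so that low genes appear to change less than they did, and p is Benjamini-Hochberg adjusted across the whole set of tested genes.

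**Figure D1:**
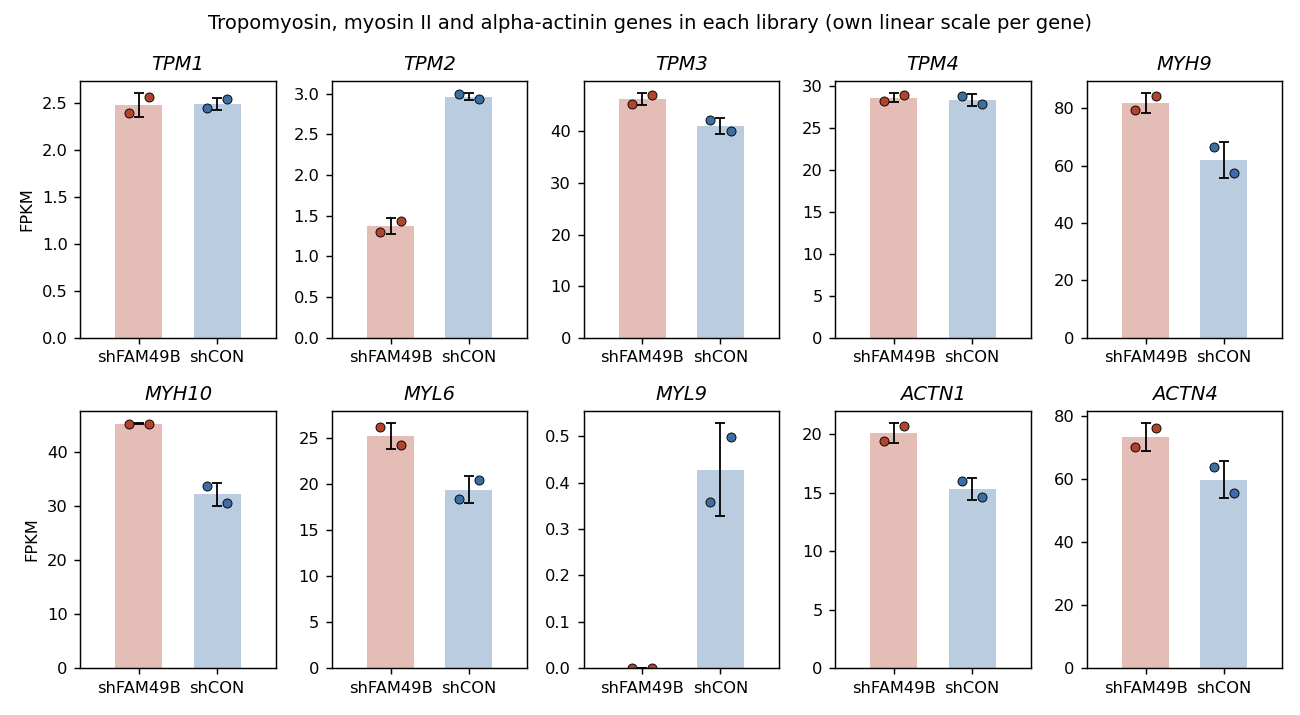
FPKM of the 10 genes in each library, with shFAM49B left of shCON on a linear axis that starts at 0 and differs between genes. Points are libraries, bars the mean and error bars the SD (n = 2). Both shFAM49B points lie above both shCON points for MYH9, MYH10, MYL6, ACTN1, ACTN4 and TPM3, below them for TPM2 and MYL9, and among them for TPM1 and TPM4.

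TPM2, on chromosome 9 (35681992 to 35690121, minus strand, GRCh38, ENSG00000198467), encodes beta-tropomyosin, a form best known from muscle that also lies on stress fibres. It measured 1.31 and 1.44 FPKM in shFAM49B, against 2.99 and 2.93 FPKM in shCON. These values rest on 65 and 70 reads in shFAM49B and on 164 and 176 reads in shCON. The groups stood well apart, with a mean of 1.37 ± 0.0955 FPKM in shFAM49B and 2.96 ± 0.0445 FPKM in shCON (SD, n = 2 each), a log2 fold change of -0.74 (SE 0.10, limma adjusted p = 0.00503). The fall passed under each of the 12 alternative settings in which TPM2 was tested, with log2 fold changes of -1.19 to -0.67.

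TPM1 (chromosome 15, 63042632 to 63071915, plus strand, ENSG00000140416), the gene of the alpha chain, was also low, at 2.39 and 2.57 FPKM in shFAM49B and 2.45 and 2.54 FPKM in shCON. The shFAM49B values lay on either side of the shCON values, and the log2 fold change of -0.01 had a 95% interval of -0.24 to 0.23 (limma adjusted p = 0.960). TPM3 and TPM4 carry most of the tropomyosin messenger RNA of these cells by FPKM and encode forms found on stress fibres and on finer actin networks. TPM3 (chromosome 1, 154155304 to 154194648, minus strand, ENSG00000143549) measured 45.4 and 47.1 FPKM in shFAM49B and 42.1 and 40.0 FPKM in shCON. Both shFAM49B values were the higher ones, but TPM3 did not pass (log2 fold change 0.17, 95% interval 0.02 to 0.31, limma adjusted p = 0.0685). TPM3P9, a pseudogene copy of TPM3 with 46 and 42 reads in shFAM49B and 134 and 100 reads in shCON, averaged 0.994 FPKM in shFAM49B and 2.29 FPKM in shCON and so reached the level filter through shCON alone. How reads were split between the copies is unknown. TPM4 (chromosome 19, 16067021 to 16103005, plus strand, ENSG00000167460) stood at 28.2 and 29.0 FPKM in shFAM49B and 28.8 and 27.9 FPKM in shCON, overlapping values with a log2 fold change of 0.01 and a 95% interval of -0.13 to 0.15 (limma adjusted p = 0.872).

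A share within one library is unchanged when all values of the library are multiplied by a common factor. Quantile normalization is not such a factor and can change a share. TPM2 made up 1.69% and 1.80% of the summed FPKM of the 4 tropomyosin genes in shFAM49B, against 3.92% and 3.99% in shCON. TPM3 made up 58.7% and 58.8% in shFAM49B and 55.1% and 54.5% in shCON, so its share was higher in both shFAM49B libraries. TPM4 was at 36.5% and 36.2% in shFAM49B and 37.7% and 38.0% in shCON, a lower share in both shFAM49B libraries, while the TPM1 shares of the groups overlapped (3.09% and 3.21% in shFAM49B, 3.20% and 3.46% in shCON). The ratio of TPM1 plus TPM2 to TPM3 plus TPM4 averaged 0.0515 ± 0.00178 in shFAM49B and 0.0786 ± 0.00275 in shCON (SD, n = 2 each). With 2 libraries against 2, an exact 2-sided permutation test cannot go below p = 0.333, so these shares are descriptions. It gave that value for the ratio and for each share but that of TPM1 (exact permutation p = 0.667).

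**Figure D2:**
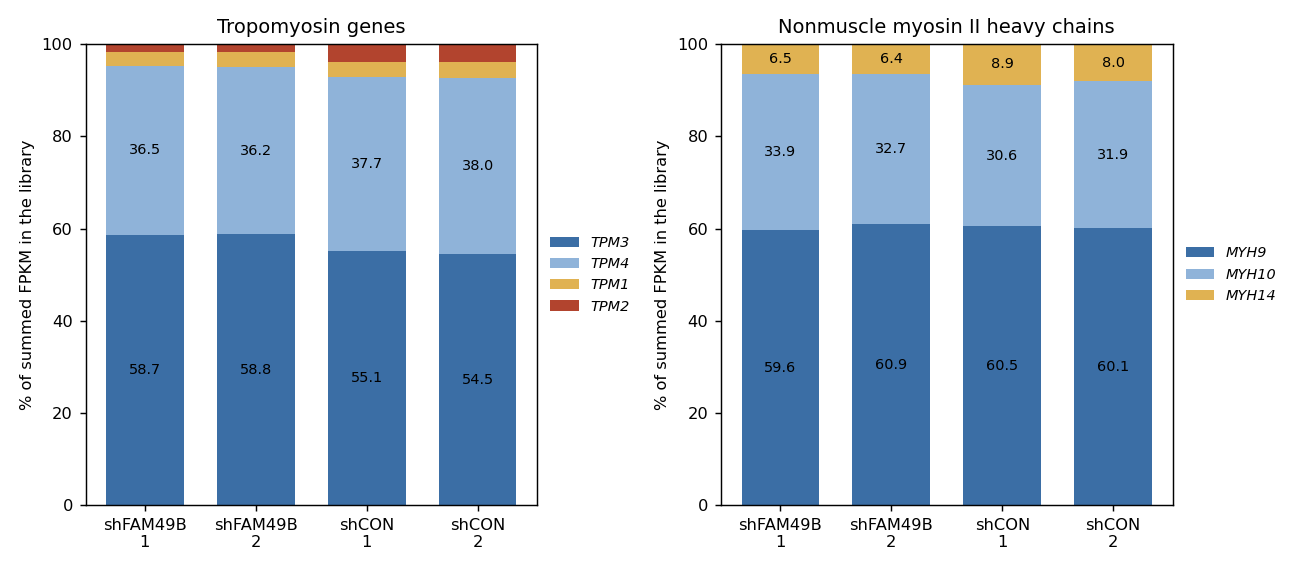
Share of each gene in the summed FPKM of the tropomyosin genes (left) and of the nonmuscle myosin II heavy chains (right), one stacked bar per library with shFAM49B libraries left of shCON libraries, in percent. Numbers give shares over 5%. The TPM2 slice at the top of the left panel is 1.69% and 1.80% in shFAM49B and 3.92% and 3.99% in shCON.

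MYH10 had the largest rise of the 10 genes as deposited. It encodes the heavy chain of myosin IIB, the slower isoform that stays attached to actin longer and gathers in the rear and centre of moving cells. MYH10 (chromosome 17, 8474205 to 8630761, minus strand, ENSG00000133026) measured 45.1 and 45.2 FPKM in shFAM49B, against 33.6 and 30.6 FPKM in shCON. The shFAM49B libraries nearly coincided and lay above both shCON libraries, with means of 45.1 ± 0.0518 and 32.1 ± 2.14 FPKM (SD, n = 2 each), 1.41-fold higher in shFAM49B (log2 fold change 0.48, SE 0.07, limma adjusted p = 0.00482). The rise of MYH10 passed under all 13 alternative settings, with log2 fold changes of 0.25 to 0.55. NDEL1, on the opposite strand, shares 72 exonic bases with MYH10 and did not pass (log2 fold change 0.12, limma adjusted p = 0.262).

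MYH9 encodes the heavy chain of myosin IIA, the faster isoform and the main source of traction in many cells. MYH9 (chromosome 22, 36281277 to 36388067, minus strand, ENSG00000100345) had the highest level of the 10 genes in either group, 79.3 and 84.2 FPKM in shFAM49B and 66.3 and 57.5 FPKM in shCON. The groups did not overlap (1.32-fold higher in shFAM49B, log2 fold change 0.40, SE 0.08, limma adjusted p = 0.0167). Leaving out shCON replicate 2 put MYH9 at a log2 fold change of 0.30 (limma adjusted p = 0.0523), and leaving out shFAM49B replicate 1 or 2 put it at 0.44 and 0.36 (limma adjusted p = 0.0567 and 0.0944), so the call was lost each time. It was lost as well as TPM (0.16, limma adjusted p = 0.142), relative to recovered reads (0.18, 0.114) and after quantile normalization (0.044, 0.731). The ratio of MYH9 to MYH10 was 1.76 and 1.86 in shFAM49B and 1.97 and 1.88 in shCON, nearly touching between the groups (exact permutation p = 0.333, the smallest the design allows).

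MYL6, the essential light chain that stiffens the myosin lever arm, measured 26.2 and 24.2 FPKM in shFAM49B and 18.4 and 20.5 FPKM in shCON. All shFAM49B values were above the shCON values, 1.30-fold on average (log2 fold change 0.36, SE 0.08, limma adjusted p = 0.0176). MYL6 (chromosome 12, 56158161 to 56163496, plus strand, ENSG00000092841) shares 89 exonic bases with its paralog MYL6B on the same strand and 514 with SMARCC2 on the opposite strand, and the treatment of reads in shared bases was not stated. MYL6B was 1.54-fold higher and SMARCC2, a chromatin remodelling subunit, 1.26-fold higher in shFAM49B (limma adjusted p = 0.00446 and 0.0100), and the part of shared reads in the MYL6 rise was not tested. Leaving out shCON replicate 1, shFAM49B replicate 1 or shFAM49B replicate 2 ended the MYL6 call, with log2 fold changes of 0.29, 0.31 and 0.42 (limma adjusted p = 0.0780, 0.0807 and 0.0519). MYL6 also did not pass as TPM (0.13, limma adjusted p = 0.280), relative to recovered reads (0.15, 0.222) or after quantile normalization (0.20, 0.120).

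MYL9 encodes a regulatory light chain whose phosphorylation switches the motor on, and it is the form typical of smooth muscle and of cells rich in stress fibres. MYL9 (chromosome 20, 36541484 to 36551447, plus strand, ENSG00000101335) had 0 reads in both shFAM49B libraries, against 17 and 26 reads, or 0.357 and 0.498 FPKM, in the shCON libraries. The shCON mean was 6.09-fold above a floor of 3 reads per shFAM49B library (0.0694 and 0.0711 FPKM). That figure takes the shCON mean as exact and leaves out the counting error of its own few reads. When all 32758 genes with any reads were tested, of which 4.21% fell, MYL9 passed (log2 fold change -0.51, SE 0.08, limma adjusted p = 0.0404). With 0 reads in both shFAM49B libraries, MYL9 entered that test through shCON alone. Its p-value there is a description and adds nothing to the read counts. The related chains MYL12A and MYL12B carried nearly all regulatory light chain reads: MYL12B averaged 29.9 ± 1.92 FPKM in shFAM49B and 26.7 ± 0.854 FPKM in shCON, and MYL12A 9.81 ± 1.08 and 8.39 ± 1.03 FPKM (SD, n = 2 each). Neither passed (limma adjusted p = 0.120 and 0.191), and their near identity leaves their split uncertain. MYL9 came to 0.0106 and 0.0137 of the MYL12A and MYL12B sum in the shCON libraries.

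Both alpha-actinins rose as deposited. ACTN4 (chromosome 19, 38647649 to 38731583, plus strand, ENSG00000130402), whose product sits at leading edges and in the nucleus as well as on stress fibres, measured 70.1 and 76.3 FPKM in shFAM49B and 63.9 and 55.7 FPKM in shCON. ACTN1 (chromosome 14, 68874143 to 68979440, minus strand, ENSG00000072110), concentrated on stress fibres and at focal adhesions, measured 19.5 and 20.7 FPKM in shFAM49B and 16.0 and 14.7 FPKM in shCON. For both genes the shFAM49B libraries were the higher ones, 1.31-fold for ACTN1 (log2 fold change 0.37, SE 0.07, limma adjusted p = 0.0120) and 1.22-fold for ACTN4 (log2 fold change 0.29, SE 0.09, limma adjusted p = 0.0453). Leaving out shCON replicate 2 ended the ACTN1 call (log2 fold change 0.31, adjusted p = 0.0608), as did leaving out shFAM49B replicate 2 (0.33, adjusted p = 0.0671), and ACTN4 passed with 1 library left out only when that was shCON replicate 1 (0.39, adjusted p = 0.0393; otherwise 0.19 to 0.35, adjusted p = 0.0833 to 0.195). As TPM neither passed (0.14 for ACTN1 and 0.050 for ACTN4, limma adjusted p = 0.126 and 0.616), nor did they relative to recovered reads (limma adjusted p = 0.0947 and 0.494). ACTN4 was 78.3% and 78.7% of the summed FPKM of the pair in shFAM49B and 80.0% and 79.1% in shCON.

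In order of level in shFAM49B the genes ran MYH9, ACTN4, TPM3, MYH10, TPM4, MYL6, ACTN1, TPM1, TPM2 and MYL9, with no overlap between the ranges of neighbours. In shCON the order was the same except that TPM2 stood above TPM1, and the ranges of MYH9 and ACTN4 overlapped. The mean level over the 4 libraries ran from 2.17 FPKM for TPM2 to 71.8 FPKM for MYH9 among the 9 tested genes. FPKM divides by the length of all annotated exons of a gene together, up to 12876 bases for TPM1, so genes with many alternative exons are placed lower than their main transcript alone would be.

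Across the 4 libraries 8 of the 10 genes did not overlap between the groups, 6 with both shFAM49B libraries above and 2 with both below. The 2 below were TPM2 and MYL9, and MYL9, with 0 reads in both shFAM49B libraries, is not among the tested genes. Over all tested genes 74.7% did not overlap, 43.1% with shFAM49B above and 31.6% with shFAM49B below. Apart from that of MYH10, the rises depended on how libraries were scaled to each other, while the fall of TPM2 did not. The depth used in the deposited values came to 0.941 and 0.919 of the library's reads in shFAM49B and 1.08 and 1.10 in shCON. Rescaling moved the log2 fold changes of all genes by a median of -0.24 as TPM, -0.19 relative to recovered reads, -0.06 by median ratios over the tested genes and -0.02 by quantile normalization. As TPM or relative to recovered reads, MYH10 remained higher (log2 fold change 0.25 and 0.26), TPM2 remained lower (-1.19 and -0.89), TPM4 became lower (-0.23 and -0.21), and MYH9, MYL6, ACTN1 and ACTN4 did not pass (0.05 to 0.18). In these scalings 11.6% and 12.5% of all tested genes rose and 31.7% and 30.3% fell. After quantile normalization MYH10 and ACTN1 rose (0.25 and 0.24) and TPM2 fell (-0.67), against a background of 19.2% and 17.8%, and ACTN4 turned to -0.03. By median ratios 4 of the genes rose (MYH9, MYH10, MYL6 and ACTN1) and 1 fell, against 21.2% and 19.2% of all genes.

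The share of all genes called moved with the other settings too. With a pseudocount of 0.1 the counts were 5 higher and 1 lower, against 26.3% and 15.5% of all genes. Without a filter MYH10 and ACTN1 rose and TPM2 and MYL9 fell, against 6.67% and 4.21%, and MYL9 entered that test through shCON alone. With a minimum mean of 5 FPKM, which TPM1 and TPM2 miss, 5 of 7 rose and 0 fell, against 41.1% and 17.0%. With limma-voom on the recovered reads 6 rose and 1 fell, against 31.1% and 20.3%. That fit took the depth behind the deposited FPKM as library size, so it kept the deposited scaling (median shift of all genes 0.004). It does not test the dependence on scaling. With the replicate number as a block 4 rose and 1 fell, against 24.9% and 14.8%.

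**Figure D3:**
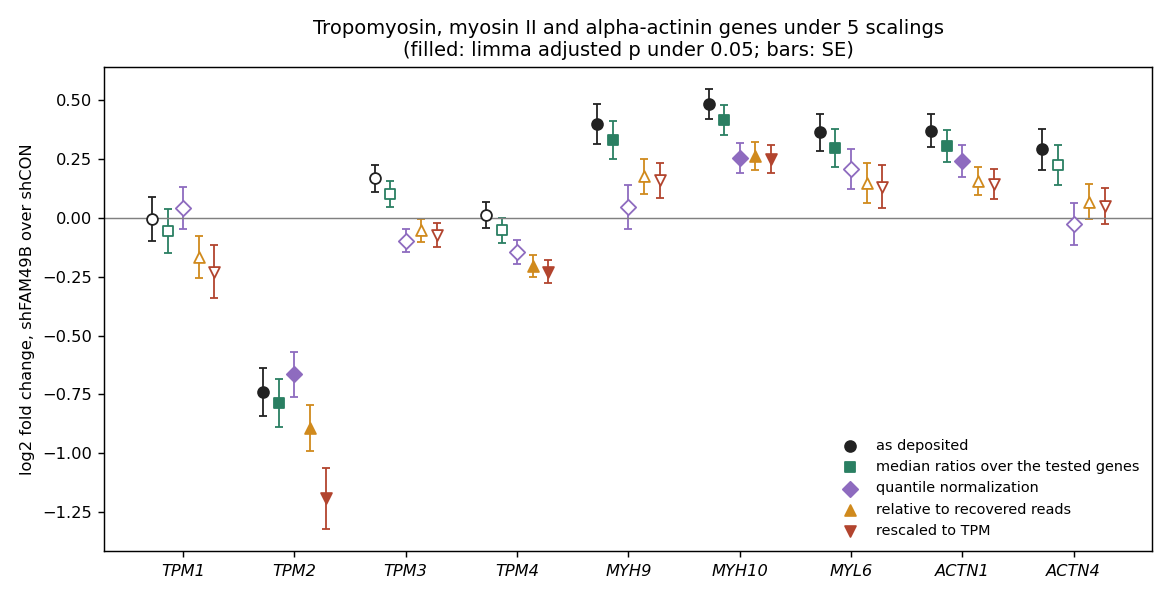
Log2 fold change of shFAM49B over shCON for the 9 tested genes under 5 scalings of the libraries, one symbol per scaling, with the limma SE as bars. Filled symbols have a limma adjusted p under 0.05. Only TPM2, below 0, and MYH10, above 0, are filled under all 5 scalings, while TPM4 moves from 0.01 as deposited to -0.23 as TPM.

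Stretches of DNA upstream of TPM2 and MYH10 are shown because these genes kept their calls under all 5 scalings, in opposite directions. Both were taken from RefSeq promoter windows (GRCh38.p14) around a gene start, cut at the most upstream start of the deposited gene model, and run 5′ to 3′ on the gene's strand. Capitals mark the GC box, searched as GGGCGG on both strands.
TPM2, chr9:35690122-35690306, minus strand: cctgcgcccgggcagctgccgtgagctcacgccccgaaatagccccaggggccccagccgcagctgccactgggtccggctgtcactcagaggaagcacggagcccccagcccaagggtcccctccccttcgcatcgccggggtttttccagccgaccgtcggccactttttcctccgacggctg
MYH10, chr17:8630762-8630975, minus strand: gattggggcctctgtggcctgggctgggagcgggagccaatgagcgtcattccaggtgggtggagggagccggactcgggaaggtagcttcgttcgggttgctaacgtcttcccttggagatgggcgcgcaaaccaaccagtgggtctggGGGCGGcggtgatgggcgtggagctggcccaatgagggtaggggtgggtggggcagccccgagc
The stretch of MYH10 holds 1 GC box and that of TPM2 holds 0. In full windows, all 9 genes with a RefSeq window (every gene but MYL9) had a GC box in at least 1 of their windows, as did 48.3% of all 27305 gene symbols. The 9 genes had 17 windows and all symbols 35116, so the genes had more windows each and the shares are not like for like. Of all windows 45.0% held a GC box.

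SRF, a transcription factor that with myocardin-related cofactors drives many actin and myosin genes, binds the CArG box, so this motif was searched as well, in its exact form on both strands. It occurred in 2 of the 9 genes, TPM4 and ACTN1, and in 1.60% of all gene symbols with a window. These shares are not like for like either, as the 9 genes had more windows each. Of all windows 1.29% held a CArG box. Among 91 genes of the related lists with a window, 12 held one: CNN2 and FHL2 rose, FLNA and ROCK2 fell, LPP, SVIL, SRF and SMTN did not pass, and MYLK, MYL7, ACTA1 and ACTC1 were too low to test. The lists include genes known as SRF targets, so this share is no measure of the knockdown. The boxes of TPM4 and ACTN1 are printed in capitals within 30 bases, with those of the called genes that rank among the 4 of smallest p in their list.
TPM4, chr19:16067355-16067384, plus strand: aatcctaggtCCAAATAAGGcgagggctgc
ACTN1, chr14:68977718-68977747, minus strand: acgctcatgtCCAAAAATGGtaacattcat
FLNA, chrX:154374709-154374738, minus strand: ggcaattttaCCAATTAAGGctttctcgcc
ROCK2, chr2:11345491-11345520, minus strand: aaatgtacttCCTTAAATGGgtttactggg
CNN2, chr19:1026509-1026538, plus strand: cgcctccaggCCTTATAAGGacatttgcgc
The boxes begin 173 bases before a RefSeq start in TPM4, 171 in ACTN1, 94 in FLNA, 73 in ROCK2 and 89 in CNN2. Those of TPM4 and ACTN1 lie inside the deposited gene models, whose most upstream starts are at 16067021 and 68979440. The genes that carry the boxes differed in direction as deposited: ACTN1 and CNN2 rose, FLNA and ROCK2 fell and TPM4 did not pass. SRF was at 20.8 ± 1.24 FPKM in shFAM49B and 22.0 ± 0.696 FPKM in shCON (SD, n = 2 each), and neither SRF nor its cofactors MRTFA and MRTFB passed as deposited (limma adjusted p = 0.150 to 0.610). All 3 were lower as TPM and relative to recovered reads, and MYOCD, the cofactor of muscle, averaged under 1 FPKM.

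Genes that control myosin II changed in both directions. Of 19 tested regulators 6 rose, 6 fell and 7 did not pass, where 26.4% of all genes rose and 15.8% fell, and the median log2 fold change was -0.01 beside 0.05 for all genes. As TPM 2 rose and 9 fell, beside 11.6% and 31.7% of all genes, and relative to recovered reads 3 rose and 9 fell, beside 12.5% and 30.3%. RHOA, the GTPase that turns on contractility, measured 279 ± 8.10 FPKM in shFAM49B and 174 ± 4.37 FPKM in shCON (1.60-fold higher, limma adjusted p = 0.00204), and RHOB, a short-lived relative on endosomes, 302 ± 8.09 and 78.5 ± 4.32 FPKM (3.85-fold higher, limma adjusted p = 0.000337). ROCK2, a kinase downstream of RHOA that phosphorylates the regulatory light chain and inhibits its phosphatase, stood instead at 4.48 ± 0.388 FPKM in shFAM49B and 9.71 ± 0.197 FPKM in shCON (2.17-fold lower, limma adjusted p = 0.00184). ARHGEF11, an exchange factor that activates RHOA, was 1.46-fold lower (limma adjusted p = 0.00522). These 4 genes kept their direction and call under all 13 alternatives (SD over n = 2 each). The counts themselves were lower with 1 library left out, and so were the shares of all genes that rose and that fell.

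Of the 4 other tested chains of nonmuscle and smooth muscle myosin II, MYL6B rose and MYL12A, MYL12B and MYH14 did not pass (median log2 fold change 0.18). Over all tested genes 26.4% rose and 15.8% fell. MYH14, the heavy chain of myosin IIC, averaged 8.73 ± 0.182 FPKM in shFAM49B and 8.71 ± 1.43 FPKM in shCON (SD, n = 2 each, log2 fold change 0.01, limma adjusted p = 0.952). As a share of the 3 nonmuscle heavy chains, MYH14 was lower in both shFAM49B libraries (6.46% and 6.41%) than in both shCON libraries (8.87% and 8.04%), and MYH10 was higher (33.9% and 32.7% in shFAM49B, 30.6% and 31.9% in shCON). MYH11, the smooth muscle heavy chain, averaged under 1 FPKM.

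Among 24 tested proteins of stress fibres and adhesion plaques, 9 rose, 3 fell and 12 did not pass (median 0.12), beside 26.4% and 15.8% of all genes. CSRP1, 1 of the 3 that fell, averaged 0.922 FPKM in shFAM49B and 1.69 FPKM in shCON and reached the level filter through shCON alone. CNN2, a calponin that steadies actin filaments, was 1.61-fold higher at 45.7 ± 0.467 FPKM in shFAM49B and 28.4 ± 0.255 FPKM in shCON (limma adjusted p = 0.0018). FHOD1, a formin of stress fibres, was 1.74-fold higher (limma adjusted p = 0.00204) and FHL3, a LIM-domain protein, 1.40-fold higher (limma adjusted p = 0.00441). These 3 passed under all 13 alternatives, while CNN3, 1.26-fold higher as deposited (limma adjusted p = 0.00704), passed under 1 of the 4 other scalings. The count itself turned with the scaling, to 3 higher and 9 lower both as TPM (11.6% and 31.7% of all genes) and relative to recovered reads (12.5% and 30.3%). With 1 library left out fewer genes passed in either direction, both in the list and among all genes. SDs are over 2 libraries per group.

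Of 10 tested crosslinkers and bundlers other than ACTN1 and ACTN4, 3 rose, 1 fell and 6 did not pass (median 0.14), beside 26.4% and 15.8% of all genes. As TPM 1 rose and 3 fell, beside 11.6% and 31.7% of all genes. Relative to recovered reads 1 rose and 3 fell as well, beside 12.5% and 30.3%. FLNA, the filamin that joins crossing filaments into gels, was lower at 94.7 ± 4.65 FPKM in shFAM49B and 133 ± 10.4 FPKM in shCON (1.41-fold, limma adjusted p = 0.00726, past the threshold under all 13 alternatives), in contrast to the alpha-actinins. FSCN1, fascin, which packs filopodial bundles, was 1.46-fold higher at 201 ± 13.1 FPKM in shFAM49B and 138 ± 1.92 FPKM in shCON (limma adjusted p = 0.0038), and did not pass after quantile normalization (log2 fold change 0.08). ACTN2, the alpha-actinin of muscle, was low, at 2.53 ± 0.252 FPKM in shFAM49B and 1.70 ± 0.117 FPKM in shCON (limma adjusted p = 0.0402), and passed under 3 of 12 alternatives. SPTAN1, a spectrin of the cell cortex, was 1.18-fold higher as deposited (limma adjusted p = 0.0383) and passed under none of the 4 other scalings. Whichever library was left out, FSCN1 was the 1 gene of the list to rise and FLNA the 1 to fall. SDs are over 2 libraries per group.

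Tropomodulins and leiomodins bind tropomyosin at the slow-growing filament end. Of 4 tested, LMOD1, a leiomodin of smooth muscle, rose 1.54-fold (4.95 ± 0.12 FPKM in shFAM49B, 3.22 ± 0.123 FPKM in shCON, limma adjusted p = 0.00659) and TMOD3, the widespread tropomodulin, fell 1.31-fold (5.39 ± 0.522 FPKM in shFAM49B, 7.05 ± 0.326 FPKM in shCON, limma adjusted p = 0.029). TMOD1 and TMOD2 did not pass (SD over n = 2 each, limma adjusted p = 0.842 and 0.405). Among all tested genes 26.4% rose and 15.8% fell. LMOD1 passed under all 12 alternatives that tested it and TMOD3 under 9 of 13, being lost without a filter and without shCON replicate 1, shCON replicate 2 or shFAM49B replicate 2 (limma adjusted p = 0.146, 0.0853 and 0.110 for the left-out libraries).

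**Figure D4:**
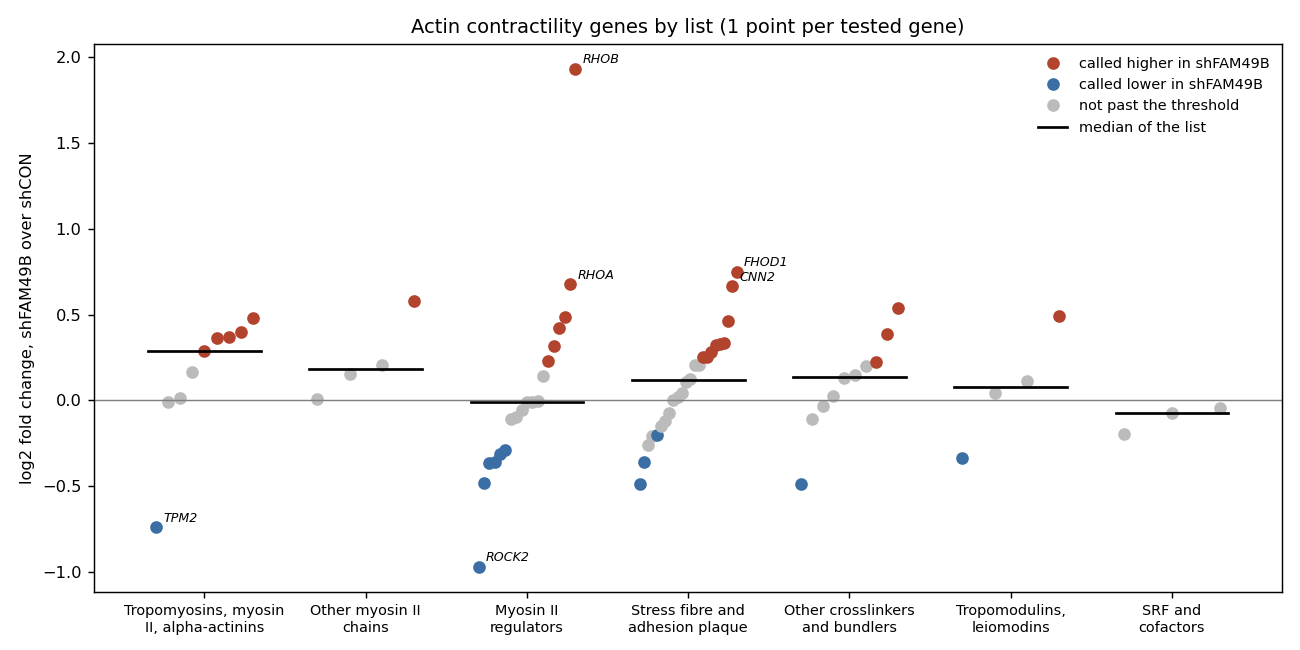
Log2 fold change of shFAM49B over shCON for each tested gene of 7 lists, 1 point per gene, coloured by the limma call as deposited, with the median of each list as a line. Genes past 0.6 in either direction are named. RHOB is at 1.93 and ROCK2 at -0.97 within the same list, and the 3 points for SRF and its cofactors lie just below 0.

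Most markers of muscle and stroma averaged under 1 FPKM. Of 18 sarcomeric genes 16 averaged under 1 FPKM and 6 had no reads, and the list summed to 3.74 and 4.12 FPKM in shFAM49B and 5.40 and 4.85 FPKM in shCON. The 7 smooth muscle markers summed to 11.6 and 11.3 FPKM in shFAM49B and 10.4 and 9.81 FPKM in shCON, with LMOD1 and SMTN the only ones above 1 FPKM in every library. The 7 fibroblast markers summed to 6.59 and 7.18 FPKM in shFAM49B and 6.58 and 6.99 FPKM in shCON, nearly all of it COL1A1. The 7 endothelial and leukocyte markers summed to 1.36 and 1.13 FPKM in shFAM49B and 1.46 and 1.72 FPKM in shCON. Keratins listed for stratified epithelia moved with the groups. The list of 8 includes KRT19, which simple epithelia also make. The 8 summed to 34.0 and 37.6 FPKM in shFAM49B and 594 and 527 FPKM in shCON, and all 6 tested fell. The part of that difference in the lower TPM2 and MYL9 or in the higher MYH10 was not tested, and in bulk RNA fewer cells of a type and less RNA per cell cannot be told apart.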

How the data were processed

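RNA-seq of OVCAR8 cells was analysed in 2 shFAM49B and 2 shCON libraries, grouped by sample title. The authors deposited FPKM per gene with gene length, per the file headers. FPKM times length was a whole multiple of 1 step for 100% of values above 0 (tolerance 0.001 of a step), which gave the reads. Mouse builds (GRCm38, mm10) stand in the submitters' processing notes, but all 58735 identifiers, starts and ends are those of human GENCODE release 29 (GRCh38). The aligner and read counter used are not stated. Values were tested with limma 3.58.1 (R 4.3.3) on log2(FPKM + 1) with trend moderation, 2-sided, in genes averaging 1 FPKM or more, with Benjamini-Hochberg adjustment. The procedure was run on simulated data in which few genes changed and no scaling factor set the libraries apart. That setting differs from these data, so it does not test the calls given here. Alternatives were a pseudocount of 0.1, other filters and scalings, limma-voom on recovered reads, the replicate number as a block, and each library left out. The limma-voom fit used the depth behind the deposited FPKM as library size, not the recovered read totals. Genes and lists were chosen with earlier results of these data known. Named are the 10 genes, FAM49B, up to 4 genes of smallest p per list, and overlapping genes or pseudogenes. Genes named as absent, CSRP1, and list genes named for a CArG box were chosen after their values were seen. Intervals and the floor of 3 reads cover counting error or spread of these libraries only.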

Additional observations from a re-analysis of the deposited data

How the results depend on the processing

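Results were recomputed under 13 alternatives, with each value below in log2 units or as a count of genes passing at a limma adjusted p under 0.05. TPM2 and MYH10 passed in the same direction wherever they were tested, and TPM1 under no alternative. With 1 library left out, log2 fold changes ran from 0.30 to 0.50 for MYH9, 0.29 to 0.44 for MYL6, 0.31 to 0.43 for ACTN1 and 0.19 to 0.39 for ACTN4. Without a filter MYH9 (0.40, adjusted p = 0.0722), MYL6 (0.36, adjusted p = 0.0655) and ACTN4 (0.29, adjusted p = 0.138) did not pass. As TPM the values were 0.16 for MYH9, 0.13 for MYL6, 0.14 for ACTN1, 0.050 for ACTN4, -0.23 for TPM4 and -0.010 for SPTAN1. Relative to recovered reads they were 0.18 for MYH9, 0.15 for MYL6, 0.16 for ACTN1, 0.068 for ACTN4 and -0.21 for TPM4. By median ratios ACTN4 was 0.22 (adjusted p = 0.0877), and after quantile normalization MYH9 was 0.044, MYL6 0.20 and ACTN4 -0.027. TPM3 passed with limma-voom, which kept the deposited scaling (0.17, limma adjusted p = 0.0323).

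Of the 10 genes, 2 rose and 2 fell without a filter. MYL9 was 1 of those that fell and entered that test through shCON alone. With a minimum of 5 FPKM 0 of the genes fell. Both as TPM and relative to recovered reads 1 rose and 2 fell, and after quantile normalization 2 rose. Fewer rose with 1 library left out than as deposited. Of the regulators of myosin II, 3 rose and 2 fell without a filter, 2 rose as TPM, 3 rose relative to recovered reads, and 2 to 4 rose and 2 to 4 fell with 1 library left out. Of the stress fibre and plaque genes, 5 rose and 1 fell without a filter, 3 rose and 9 fell both as TPM and relative to recovered reads, 4 rose after quantile normalization, and 5 to 7 rose and 0 to 1 fell with 1 library left out. Of the other crosslinkers, 1 rose without a filter, under each of the 4 other scalings and in each fit with 1 library left out, and 3 fell as TPM, 3 relative to recovered reads and 2 after quantile normalization. Of the tropomodulins and leiomodins, 0 rose with a minimum of 5 FPKM, 0 fell without a filter and 0 to 1 fell with 1 library left out. Of SRF and its cofactors, 3 fell as TPM, 3 relative to recovered reads, 1 after quantile normalization and 1 with limma-voom. Of all tested genes, 2185 rose and 1378 fell without a filter, 1322 fell with a minimum of 5 FPKM, 1597 rose and 4362 fell as TPM, 1722 rose and 4173 fell relative to recovered reads, and 1897 to 2495 rose and 1027 to 1529 fell with 1 library left out. List medians changed sign as TPM and relative to recovered reads for the other myosin chains (-0.050 and -0.030), stress fibre genes (-0.099 and -0.072), crosslinkers (-0.095 and -0.073) and tropomodulins (-0.13 and -0.097), while the value of -0.33 with a minimum of 5 FPKM is that of TMOD3, the 1 gene of the list left. The cause of the other differences was not tested.

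The replicate 1 libraries did not deviate together from their group means (correlation across the tested genes -0.0132), so the numbers were not taken as pairing. With 2 libraries per group, the deviations of replicate 2 are those of replicate 1 with the sign reversed and add nothing. With the replicate number as a block ACTN4 did not pass (0.29, adjusted p = 0.0676), 1 stress fibre gene fell, 1 crosslinker rose, and 3429 genes rose and 2036 fell. The 2 libraries per group leave limma few residual degrees of freedom, and MYL9 and TPM2 rest on the fewest reads.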

Other observations

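Summed over the family, the 4 tropomyosin genes came to 77.3 and 80.1 FPKM in shFAM49B and 76.4 and 73.4 FPKM in shCON, while TPM2 made up the smaller part of that sum in shFAM49B. MYH9 and MYH10 together came to 124 and 129 FPKM in shFAM49B and 99.9 and 88.1 FPKM in shCON, and ACTN1 and ACTN4 together to 89.6 and 97.0 FPKM in shFAM49B and 79.9 and 70.3 FPKM in shCON. KRT5, a keratin of the basal layer of stratified epithelia, averaged 13.5 ± 0.221 FPKM in shFAM49B and 207 ± 18.0 FPKM in shCON (SD, n = 2 each), 15.4-fold lower (limma adjusted p = 0.000166), and KRT19, KRT14 and KRT17 were 11.1-fold to 20.5-fold lower.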
